A study of Mus musculus with 12 samples.

Results

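Spinal cords of Ddx20 conditional knockout (cKO) mice were compared at 4.5 and 4 weeks after tamoxifen, which gives the change within the knockouts over this interval. The comparison used 6 of the 12 libraries of the study, 3 cKO animals at each time, matched gene by gene through the gene identifier. The other 6 libraries, 3 controls at each time, served only to mark genes that also differed between the control groups. The knockouts carried loxP-flanked Ddx20 alleles and the Plp-CreER transgene, a tamoxifen-activated recombinase driven in cells of the oligodendrocyte lineage. The labels give the second genotype only as Control, so which alleles those mice carried, and whether they received tamoxifen, is not stated beyond the shared time scale. The labels describe the libraries of a group as independent biological replicates of spinal cord, and no animal was followed from one time to the other. In such bulk samples fewer cells of a type and less RNA per cell cannot be told apart.

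Ddx20 (also known as Gemin3) is an RNA helicase of the SMN complex, which loads Sm proteins onto the small nuclear RNAs of the spliceosome. Oligodendrocytes wrap axons of the cord in myelin, a membrane very rich in cholesterol, and are replaced from oligodendrocyte progenitors that pass through a short premyelinating stage. When myelin breaks down, microglia and macrophages engulf its debris, digest it in lysosomes and export or esterify the cholesterol.

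The libraries held between 33104560 and 47677267 estimated counts, with 23282 to 24999 genes detected and 5.70% to 7.34% of counts in mitochondrial genes. Levels are given in CPM, counts scaled by library size to a common total, so that levels can be compared between libraries of 1 gene but not between genes of different length. Xist and Y-linked counts separated the animals by sex. At 4 weeks cKO libraries 1 and 2 were female and library 3 was male, all cKO libraries at 4.5 weeks were female, and the controls were male at 4 weeks and female at 4.5 weeks. Sex and time cannot be told apart in the controls, and genes of the X and Y chromosomes were set aside from every count. In a principal component analysis of the 6 cKO libraries the first component held 66.9% of the variance and separated the times, with the 4-week libraries at -70.3, -52.4 and -54.1 and the 4.5-week libraries at 61.3, 56.8 and 58.7. The second component held 12.8%, and on it cKO library 1 of 4 weeks lay at 47.2, libraries 2 and 3 at -38.9 and -15.6, and the 4.5-week libraries between -0.32 and 4.67. Library 1 of 4 weeks thus stood apart from its own group, and gene group counts and medians that moved by more than 1.5 times without it are given both ways. The spread between replicates was wider at 4 weeks, where 15.4% of genes had a standard deviation of log2 CPM above 0.5, against 9.37% at 4.5 weeks. The markers Mbp, Mog, Snap25, Chat, Aqp4, Csf1r and Hoxb9 of the cells and region of the cord were detected in every library.

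Between 4 and 4.5 weeks the knockout cord moved in most of its expressed genes. Of 18657 genes tested outside the X and Y chromosomes, 5058 rose (27.1%) and 5344 fell (28.6%), which together is 55.8% called by edgeR's quasi-likelihood test at an adjusted p below 0.05. A change of at least 2-fold was seen in 1714 genes that rose (9.19%) and in 1213 that fell (6.5%). The median log2 fold change over all tested genes was -0.02. These shares are the background against which each gene group below is set. All 3 libraries of 4.5 weeks lay above all 3 of 4 weeks in 30.6% of genes and below them in 31.2%. In the controls 3091 genes (16.6%) differed between the same times, 9.35% higher and 7.22% lower, and 2260 genes were called in both comparisons, which is 21.7% of the knockout calls and 73.1% of the control calls. With the length trend removed the control count was 1006. It was 1257 or 1417 without control library 1 or 2 of 4 weeks, and 1457 or 1980 without control library 2 or 3 of 4.5 weeks. With a sex term in the model the count was 0. Sex varied within a group only among the cKO libraries of 4 weeks, so this 0 cannot tell sex from time. Of the genes called in both, 1583 moved in the same direction (8.48% of tested genes) and 677 in opposite directions (3.63%). The difference between the 2 time effects was itself called for 7533 genes (40.4%), among them 6752 of the genes called in the knockouts (64.9%). All 10402 genes called in the knockouts kept their direction when the male cKO library was left out, and 9160 of them (88.1%) were still called. The remaining cKO libraries had already served to call these genes, so the kept direction is not an independent check. The controls of both sexes stayed in that fit.

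**Figure D1:**
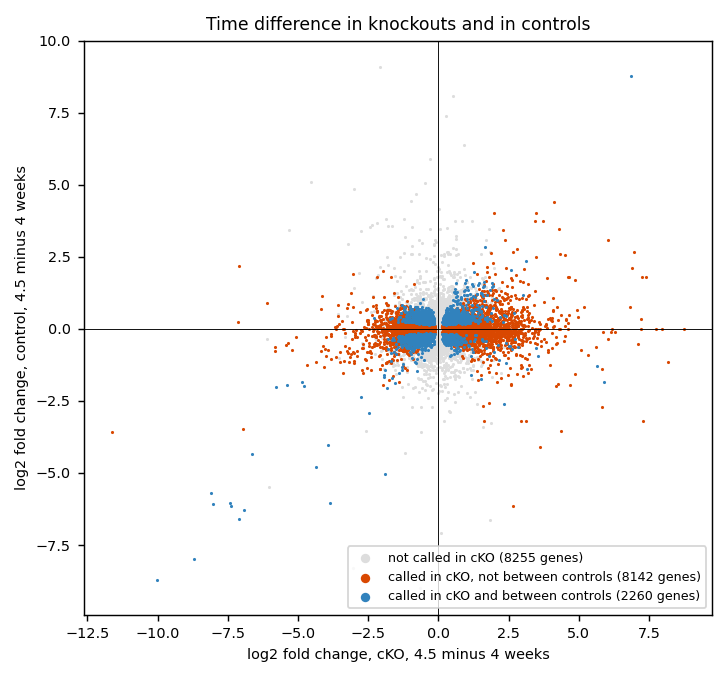
Each point is 1 of the 18657 genes tested outside X and Y, with the log2 fold change between the cKO groups on the horizontal axis and between the control groups on the vertical axis. Orange points (8142 genes) were called between the cKO groups and not between the controls, blue points (2260 genes) were called in both, and grey points were not called between the cKO groups. The coloured points were chosen by their call between the cKO groups, so their wider spread along the knockout axis follows from that choice.

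Long transcripts tended to rise and short ones to fall in both comparisons. Over 18185 genes with a known transcript length, Spearman's rho between length and log2 fold change was 0.218 in the knockouts and 0.422 in the controls. The median log2 fold change went from -0.28 in the shortest of 4 length classes to 0.19 in the longest in the knockouts, and from -0.20 to 0.18 in the controls. Genes are not independent replicates, and the correlation is a description. Each time was also deposited as a table of its own, so time and any difference in library preparation cannot be told apart. Gene group counts and medians that moved by more than 1.5 times when the length trend was removed are given both ways.

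Ddx20 itself was measured at 10.2, 11.05 and 9.9 CPM at 4 weeks and 12.4, 11.14 and 13.3 CPM at 4.5 weeks. The 3 libraries of 4.5 weeks lay narrowly above the 3 of 4 weeks, but the change did not pass the test (log2 fold change 0.24 ± 0.10 SE, adjusted p = 0.0603), and an exact 2-sided permutation test gave p = 0.1, the smallest value that 3 against 3 libraries allow. The 6 controls ranged from 9.16 to 11.1 CPM. Which exons the loxP sites flank is not given in the sources used here, so a count over the whole gene does not check the deletion.

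Many genes of mature oligodendrocytes fell, while markers of earlier stages of the same lineage rose. Of 28 genes of the myelin sheath and of mature oligodendrocytes, 16 fell and 5 rose, against 28.6% and 27.1% of all genes, and the list's median log2 fold change was -0.34. Leaving out cKO library 1 of 4 weeks gave 13 that fell, 7 that rose and a median of -0.20. Opalin, a membrane protein of mature oligodendrocytes, fell from 27.2, 26.7 and 26.1 CPM at 4 weeks to 5.39, 7.04 and 6.17 CPM at 4.5 weeks (log2 fold change -2.11 ± 0.13 SE, adjusted p = 4.57e-08). Its 3 libraries of 4.5 weeks lay well below the 3 of 4 weeks, and the controls lay at 44.8 to 65.2 CPM. Myelin basic protein, Mbp, fell from 12920, 9620 and 10860 CPM at 4 weeks to 6772, 6963 and 6467 CPM at 4.5 weeks (log2 fold change -0.72 ± 0.10 SE, adjusted p = 3.59e-05). Mog, a glycoprotein of the outer myelin surface, fell from 148, 102 and 119.6 CPM at 4 weeks to 72.2, 69.3 and 64.4 CPM at 4.5 weeks (log2 fold change -0.84 ± 0.11 SE, adjusted p = 3.74e-05). Mag, the adhesion molecule of the inner myelin layer, also fell (log2 fold change -0.72 ± 0.10 SE, adjusted p = 5.73e-05). Cnp, the myelin phosphodiesterase, and Mobp, a compacting myelin protein, did not pass the test, with log2 fold changes of 0.18 ± 0.11 (adjusted p = 0.188) and -0.16 ± 0.13 (adjusted p = 0.335) and with libraries of both times that overlapped.

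Of the 5 members that rose, Gjc3 rose most. Gjc3, a connexin of myelinating glia, rose from 52.5, 34.1 and 35.2 CPM at 4 weeks to 223, 156 and 197 CPM at 4.5 weeks (log2 fold change 2.24 ± 0.16 SE, adjusted p = 1.23e-07). At 4 weeks it was below the controls, which lay at 139 to 149 CPM, and at 4.5 weeks all 3 libraries were above them. Apod, a lipocalin that binds lipids, rose from 927, 1060 and 768 CPM at 4 weeks to 2678, 2651 and 2800 CPM at 4.5 weeks (log2 fold change 1.56 ± 0.11 SE, adjusted p = 1.94e-07). Myrf, the transcription factor that switches on myelin genes, Cldn11, the tight junction protein of myelin, and Adssl1, an enzyme of purine synthesis, rose by less, with log2 fold changes of 0.39 ± 0.10, 0.47 ± 0.09 and 0.51 ± 0.10 SE and adjusted p values of 0.00398, 0.000488 and 0.00108.

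All 19 oligodendrocyte progenitor genes rose, with a median log2 fold change of 1.04. Neu4, a sialidase of progenitors and premyelinating cells, rose from 19.5, 15.1 and 16.9 CPM at 4 weeks to 116, 93.8 and 91.6 CPM at 4.5 weeks (log2 fold change 2.55 ± 0.12 SE, adjusted p = 7.85e-09). Lhfpl3, a membrane protein enriched in progenitors, rose from 45.2, 43.3 and 45 CPM at 4 weeks to 142, 141 and 138 CPM at 4.5 weeks (log2 fold change 1.66 ± 0.06 SE, adjusted p = 1.51e-09), and it was also higher in the later controls by a log2 difference of 0.35 (adjusted p = 0.003). Vcan, a matrix proteoglycan, rose from 40, 61.3 and 50.8 CPM at 4 weeks to 342, 300.3 and 290.3 CPM at 4.5 weeks (log2 fold change 2.62 ± 0.13 SE, adjusted p = 8.66e-09). The defining progenitor genes rose as well. Pdgfra, the growth factor receptor that marks progenitors, rose from 56, 70 and 57.7 CPM at 4 weeks to 118, 142 and 112 CPM at 4.5 weeks (log2 fold change 1.02 ± 0.11 SE, adjusted p = 5.19e-06). Cspg4, a surface proteoglycan, rose from 43.9, 53.7 and 54.4 CPM at 4 weeks to 135, 152 and 116 CPM at 4.5 weeks (log2 fold change 1.41 ± 0.10 SE, adjusted p = 1.72e-07). Olig2 and Sox10, transcription factors of the whole lineage, had log2 fold changes of 0.65 ± 0.11 and 0.74 ± 0.08 SE (adjusted p = 0.000235 and 7.01e-06). In every one of the 19 genes the lowest library of 4.5 weeks lay above the highest of 4 weeks.

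Genes of newly formed oligodendrocytes rose in 15 of 15 cases, with a median log2 fold change of 1.65. Tnr, the matrix protein tenascin-R, rose from 94.5, 82.7 and 73.8 CPM at 4 weeks to 679.5, 491 and 468 CPM at 4.5 weeks (log2 fold change 2.71 ± 0.15 SE, adjusted p = 2.59e-08). Itpr2, an intracellular calcium channel used to mark differentiation-committed cells, rose from 29.4, 26.9 and 27.4 CPM at 4 weeks to 142, 112 and 132 CPM at 4.5 weeks (log2 fold change 2.21 ± 0.10 SE, adjusted p = 4.74e-09). Gpr17, the receptor that marks cells between progenitor and myelinating oligodendrocyte, rose from 81.3, 47.3 and 55.5 CPM at 4 weeks to 792, 629 and 599 CPM at 4.5 weeks (log2 fold change 3.46 ± 0.22 SE, adjusted p = 7.27e-08). At 4 weeks the 3 knockouts overlapped the later controls for Gpr17, whereas at 4.5 weeks each was far above every control. Of the 15 genes, 6 were also called between the controls, 4 of them upward, and the difference between the time effects was called for 13.

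Proliferation genes moved less. Of 30 genes of DNA replication and mitosis, 2 rose and none fell, against 27.1% and 28.6% of all genes. The median log2 fold change was 0.48 (0.18 without cKO library 1 of 4 weeks, 0.30 and 0.26 without library 2 or 3 of 4.5 weeks). Mcm3, a subunit of the replicative helicase, was at 8.74, 19.7 and 16.8 CPM at 4 weeks and 21.2, 25.1 and 24.5 CPM at 4.5 weeks (log2 fold change 0.65 ± 0.21 SE, adjusted p = 0.0208). Mki67, the Ki-67 antigen of cycling cells, was at 7.71, 27.4 and 20.2 CPM at 4 weeks and 21.6, 50.9 and 54.9 CPM at 4.5 weeks (log2 fold change 1.20 ± 0.44 SE, adjusted p = 0.0339). The times overlapped for Mki67, and both 4 and 4.5 weeks held 1 library that was low. The count of risen genes was 6 without cKO library 2 of 4 weeks and 7 without library 1 of 4.5 weeks, but 0 without library 2 or without library 3 of 4.5 weeks, and 1 rose and 3 fell without library 1 of 4 weeks.

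**Figure D2:**
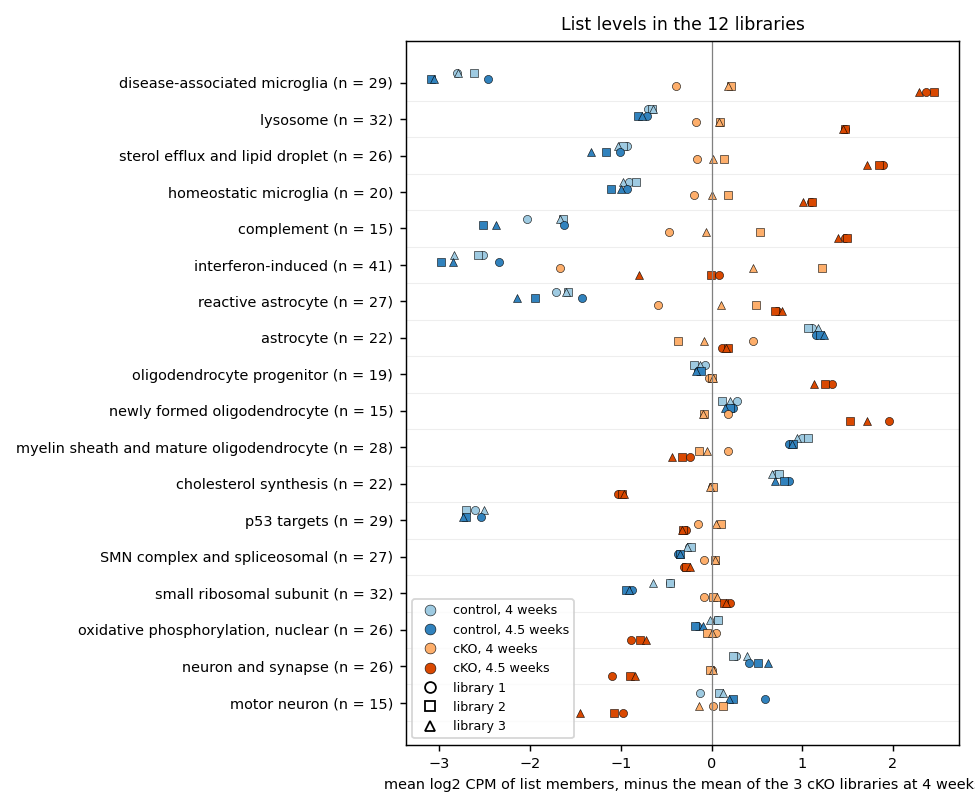
The horizontal axis gives the mean log2 CPM of the tested members of each list in each of the 12 libraries, relative to the mean of the 3 cKO libraries at 4 weeks. Colour marks the group and shape the library. Myelin genes and cholesterol synthesis were lower in the cKO at 4.5 weeks than at 4 weeks in all 3 libraries, and progenitor, newly formed oligodendrocyte, lysosome and disease-associated microglia lists were higher in all 3. The 3 libraries of cKO at 4 weeks are widely spread for the interferon-induced list.

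Genes of cholesterol synthesis fell together. Of 22 genes of the pathway and its control, 21 fell and none rose, 11 of them at least 2-fold, with a median log2 fold change of -1.03 in the knockouts against 0.07 in the controls. Fdft1, squalene synthase, fell from 111, 99.7 and 104 CPM at 4 weeks to 37.5, 42.8 and 40.6 CPM at 4.5 weeks (log2 fold change -1.38 ± 0.07 SE, adjusted p = 8.82e-09). Idi1, the isomerase of the isoprenoid building blocks, fell from 70.5, 78.9 and 67.9 CPM at 4 weeks to 24.7, 23.4 and 27.6 CPM at 4.5 weeks (log2 fold change -1.52 ± 0.08 SE, adjusted p = 1.3e-08). In all 22 genes the 3 libraries of 4.5 weeks lay below the 3 of 4 weeks, and the difference from the control time effect was called for all 22. The exception to the calls was Lss, lanosterol synthase, at 23.3, 22.6 and 22.3 CPM at 4 weeks and 21.6, 21.2 and 21.4 CPM at 4.5 weeks (log2 fold change -0.09 ± 0.06 SE, adjusted p = 0.264). Srebf2, the transcription factor that drives the pathway, fell with it, by a log2 fold change of -0.82 ± 0.06 SE (adjusted p = 1.74e-07).

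Of 15 cholesterol members with a promoter in the RefSeq table (GRCm38.p6), Hmgcs1 alone held the sterol regulatory motif TCACNCCAC, searched on both strands in the 250 bases before the start, which 1.22% of 27025 genes held. It is shown because Hmgcs1, an early enzyme of the pathway, carries the motif on which SREBP factors are known to act. The motif is in capitals in the sequence of chr13:119690189-119690247, plus strand, read 5′ to 3′.
Hmgcs1: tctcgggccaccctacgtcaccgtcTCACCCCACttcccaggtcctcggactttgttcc
Hmgcs1 fell from 247, 238 and 247 CPM at 4 weeks to 115, 114 and 110.5 CPM at 4.5 weeks (log2 fold change -1.11 ± 0.07 SE, adjusted p = 4.32e-08). The other 14 members lacked these letters in that window, which says nothing about other sites.

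Enzymes that build the other myelin lipids did not move in 1 direction. Of 18 such genes 5 rose and 5 fell, none by 2-fold, against 27.1% and 28.6% of all genes. The median log2 fold change was -0.03. The median ran from -0.09 to 0.10 over single cKO libraries left out, being 0.10 without library 1 of 4 weeks. There were 3 that fell with the length trend removed or without library 2 of 4.5 weeks. Elovl6, an elongase of fatty acids, fell from 59.9, 55 and 53.7 CPM at 4 weeks to 37.9, 36.4 and 36.6 CPM at 4.5 weeks (log2 fold change -0.60 ± 0.06 SE, adjusted p = 1.81e-06). Acaca, acetyl-CoA carboxylase, rose from 114, 97.1 and 90.5 CPM at 4 weeks to 160.4, 149 and 134 CPM at 4.5 weeks (log2 fold change 0.56 ± 0.09 SE, adjusted p = 0.000118). Gltp, a carrier of glycolipids, rose from 136, 146 and 150.1 CPM at 4 weeks to 222, 203 and 199 CPM at 4.5 weeks (log2 fold change 0.53 ± 0.06 SE, adjusted p = 1.58e-05). All 3 genes were also called between the controls, and Elovl6 and Gltp moved there in the opposite direction.

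Genes of activated microglia had the highest median rise of the lists examined. Of 29 disease-associated microglia genes, a signature of phagocytic, lipid-handling microglia, 26 rose and none fell, 24 of them at least 2-fold, and the median log2 fold change was 2.21 against -0.17 in the controls. Gpnmb, a lysosomal membrane glycoprotein of lipid-laden macrophages, rose from 13.9, 18.8 and 15.7 CPM at 4 weeks to 2398, 2338 and 2492 CPM at 4.5 weeks (log2 fold change 7.22 ± 0.16 SE, adjusted p = 7.15e-11). The 6 controls ranged from 2.1 to 3.96 CPM. Trem2, the microglial receptor for lipids and apolipoproteins, rose from 50.5, 57.1 and 71.4 CPM at 4 weeks to 392, 397 and 398 CPM at 4.5 weeks (log2 fold change 2.73 ± 0.10 SE, adjusted p = 1.51e-09), while the controls were lower at the later time (-0.35 ± 0.11 SE, adjusted p = 0.0443). Apoe, the main lipid carrier of the nervous system, rose from 3850, 2948 and 3597 CPM at 4 weeks to 27540, 20160 and 19600 CPM at 4.5 weeks (log2 fold change 2.69 ± 0.14 SE, adjusted p = 1.16e-08). Spp1, osteopontin, rose from 244, 583 and 469.7 CPM at 4 weeks to 3845, 5769 and 5806 CPM at 4.5 weeks (log2 fold change 3.57 ± 0.27 SE, adjusted p = 2.91e-07). In both genes all 3 libraries of 4.5 weeks lay far above all 3 of 4 weeks. Ccl3, Ccl4 and Ch25h did not pass the test, at log2 fold changes of 0.46, -0.66 and 0.59, and Ccl4 was called lower without cKO library 1 of 4 weeks.

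Genes of resting microglia rose too. Of 20 homeostatic microglia genes 15 rose and 2 fell, with a median log2 fold change of 1.15. Tgfbr1, the receptor of the cytokine that maintains microglia, rose from 53, 53.1 and 52.9 CPM at 4 weeks to 246, 217 and 179 CPM at 4.5 weeks (log2 fold change 2.02 ± 0.10 SE, adjusted p = 1.11e-08). Csf1r, the receptor on which microglial survival depends, rose from 209.9, 273 and 273 CPM at 4 weeks to 1013, 912 and 803 CPM at 4.5 weeks (log2 fold change 1.85 ± 0.11 SE, adjusted p = 2.64e-08). P2ry12, the purine receptor of resting microglia, rose by less, from 22.4, 24.8 and 22.4 CPM at 4 weeks to 44, 46.3 and 45.5 CPM at 4.5 weeks (log2 fold change 0.96 ± 0.07 SE, adjusted p = 1.72e-07), and at 4 weeks all 3 libraries lay within the control range of 22.3 to 28.4 CPM. Siglech, a lectin of microglia, fell from 14.3, 15.7 and 16.6 CPM at 4 weeks to 10.4, 13.4 and 7.8 CPM at 4.5 weeks (log2 fold change -0.56 ± 0.16 SE, adjusted p = 0.00951). The other gene that fell, Upk1b, was below 1 CPM in every library, and its call was lost without library 1 of 4 weeks or library 1 of 4.5 weeks.

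**Figure D3:**
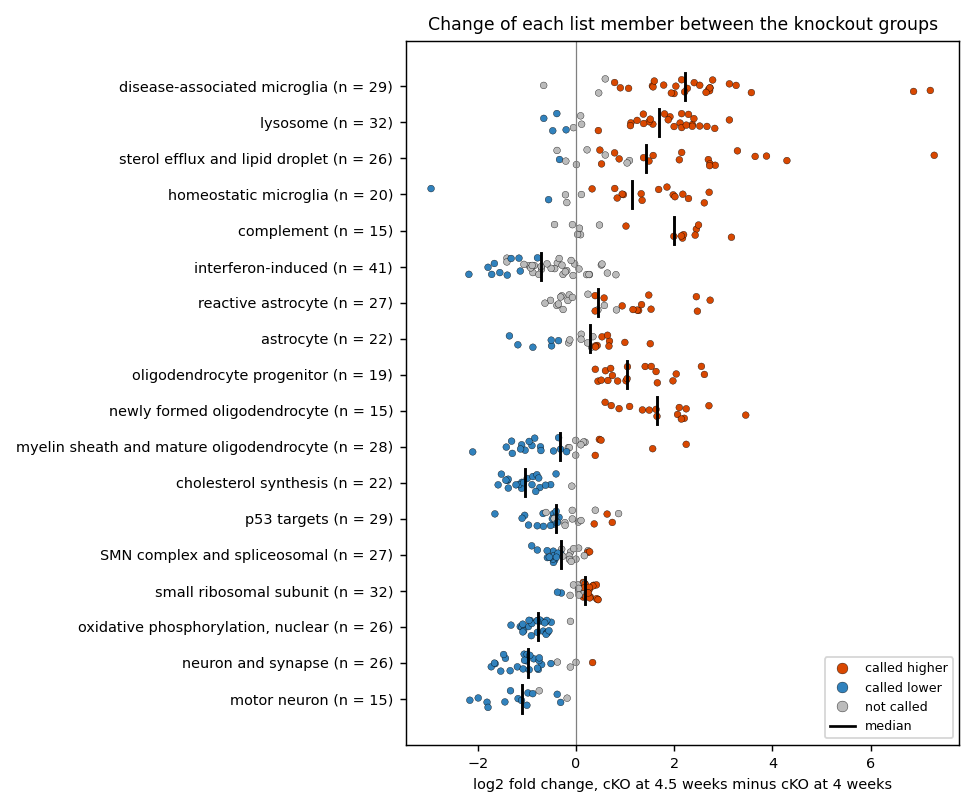
Each point is 1 tested member of a list, placed by its log2 fold change between cKO at 4.5 and at 4 weeks, in orange where it was called higher, blue where it was called lower and grey where it was not called. The plot shows 18 of the lists. Black bars mark their medians, from -1.11 for the motor neuron list to 2.21 for the disease-associated microglia list.

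Lysosomal genes rose in 25 of 32 cases and fell in 4, with a median log2 fold change of 1.68 and 24 genes at least 2-fold higher. Man2b1, the lysosomal alpha-mannosidase, rose from 81.1, 95.2 and 92.8 CPM at 4 weeks to 464, 408 and 404 CPM at 4.5 weeks (log2 fold change 2.25 ± 0.07 SE, adjusted p = 1e-09). Ctsd, the aspartic protease cathepsin D, rose from 1896, 2181 and 2381 CPM at 4 weeks to 12770, 13240 and 11030 CPM at 4.5 weeks (log2 fold change 2.52 ± 0.10 SE, adjusted p = 2.01e-09). The 4 genes that fell, Atp6v1h, Atp6v0c, Atp6v1b2 and Atp6v0d1, encode subunits of the vacuolar proton pump, with log2 fold changes of -0.66, -0.47, -0.39 and -0.20. The list holds 5 pump subunits, which were singled out after their values were seen, and the other one, Atp6v1a, did not pass the test (log2 fold change -0.05 ± 0.08 SE, adjusted p = 0.604). Atp6v0d2, a pump subunit of macrophages and osteoclasts counted in the disease-associated microglia list, rose from 0.172, 0.126 and 0.242 CPM at 4 weeks to 22.3, 20.1 and 22 CPM at 4.5 weeks (log2 fold change 6.88 ± 0.26 SE, adjusted p = 1.98e-09).

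Lysosomal genes are known targets of TFEB and related factors, which bind the E-box TCACGTG, and their promoters are shown because this list rose together. Both strands of the 250 bases before each start were searched in the RefSeq promoters of GRCm38.p6. Of 23 members with a promoter entry, 7 held the motif, among them 5 of 18 that rose, against 3.58% of 27025 genes. The 5 sequences below are read 5′ to 3′ on the strand of the gene, with the motif on either strand in capitals. They lie at chr2:164833736-164833772 (plus, Ctsa), chr7:142387894-142387950 (minus, Ctsd), chr8:13159120-13159160 (plus, Lamp1), chr9:114401004-114401060 (plus, Glb1) and chr12:102439111-102439167 (minus, Lgmn).
Ctsa: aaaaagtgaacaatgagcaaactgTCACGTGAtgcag
Ctsd: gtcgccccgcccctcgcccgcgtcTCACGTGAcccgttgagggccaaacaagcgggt
Lamp1: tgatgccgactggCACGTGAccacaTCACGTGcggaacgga
Glb1: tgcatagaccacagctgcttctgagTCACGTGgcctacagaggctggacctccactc
Lgmn: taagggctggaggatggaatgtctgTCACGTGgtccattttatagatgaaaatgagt
The log2 fold changes were 2.37 ± 0.09 SE for Ctsa, the protective protein of lysosomal sialidase, 2.52 ± 0.10 SE for Ctsd, 1.12 ± 0.06 SE for the membrane protein Lamp1, 1.88 ± 0.10 SE for the beta-galactosidase Glb1 and 1.51 ± 0.14 SE for the protease legumain, Lgmn. Their adjusted p values were 1.51e-09, 2.01e-09, 1.19e-08, 1.58e-08 and 1.14e-06. A match is a description of the letters and does not show binding.

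Genes of sterol efflux and lipid storage rose while the synthesis genes fell. Of 26 such genes 18 rose and 1 fell (2 without cKO library 1 of 4.5 weeks), with a median log2 fold change of 1.43. Abca1, the pump that loads cholesterol onto apolipoproteins, rose from 67.7, 73.4 and 65.3 CPM at 4 weeks to 750.0, 652 and 614 CPM at 4.5 weeks (log2 fold change 3.29 ± 0.11 SE, adjusted p = 1e-09). Soat1, which esterifies cholesterol for storage in droplets, rose from 36.3, 33.2 and 32.4 CPM at 4 weeks to 149.7, 146 and 142 CPM at 4.5 weeks (log2 fold change 2.10 ± 0.08 SE, adjusted p = 1.51e-09). Apoc1, an apolipoprotein of the Apoe cluster, rose from 4.59, 3.91 and 5.22 CPM at 4 weeks to 74, 70.5 and 57.4 CPM at 4.5 weeks (log2 fold change 3.88 ± 0.31 SE, adjusted p = 3.83e-07). All 3 genes were separated between the times in every library. Srebf1, a target of the liver X receptors that drives fatty acid synthesis, rose by a log2 fold change of 0.52 ± 0.07 SE (adjusted p = 6.21e-05). Nr1h2, which encodes one of those sterol-sensing receptors, fell from 87.2, 83.3 and 89.2 CPM at 4 weeks to 71.5, 68 and 66 CPM at 4.5 weeks (log2 fold change -0.34 ± 0.06 SE, adjusted p = 0.000235), and Nr1h3, which encodes the other, had a log2 fold change of 0.01 ± 0.16 SE (adjusted p = 0.974).

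**Figure D4:**
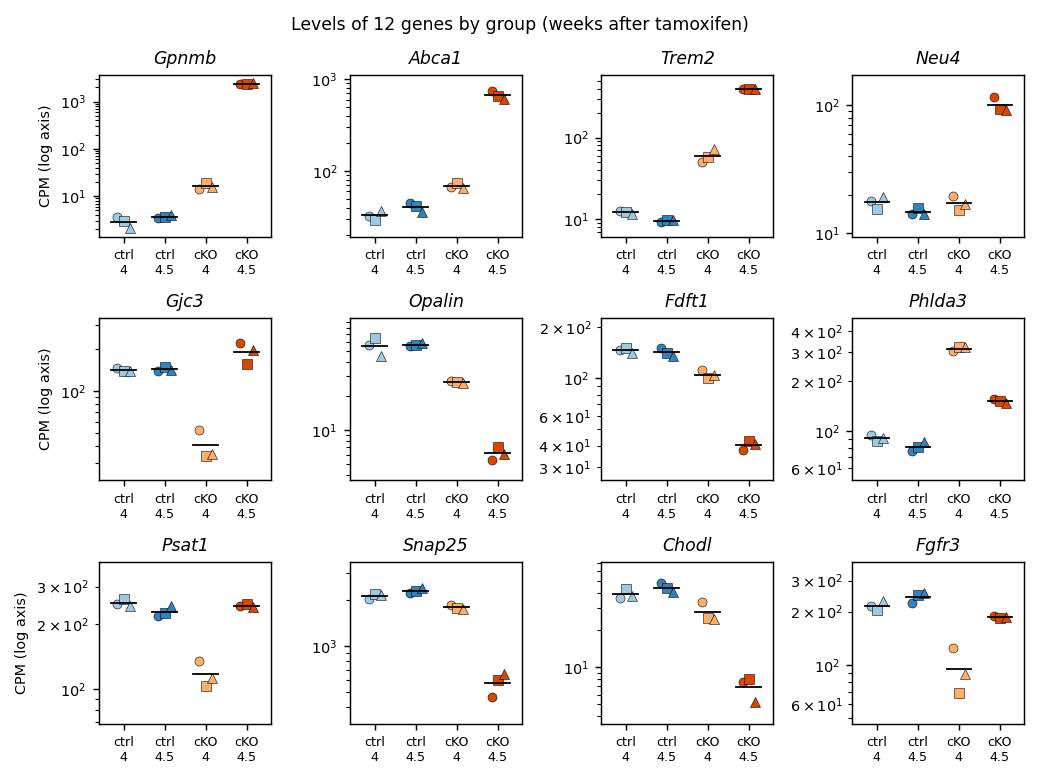
CPM of 12 genes on a logarithmic axis, with 1 point for each library, shape for the library number, colour for the group and a bar for the mean of 3. In each of the 12 genes the 3 cKO libraries at 4.5 weeks lie outside the range of the 3 at 4 weeks, and cKO library 1 of 4 weeks is the highest of its group for Fgfr3.

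Complement and phagocyte receptors rose in 9 of 15 cases and none fell, with a median log2 fold change of 1.99. C3ar1, the receptor of the C3a fragment, rose from 14.4, 29.9 and 24.6 CPM at 4 weeks to 207, 211 and 202 CPM at 4.5 weeks (log2 fold change 3.17 ± 0.19 SE, adjusted p = 3.72e-08). Itgb2, the beta chain of complement receptor 3, rose from 27.4, 49.6 and 43.8 CPM at 4 weeks to 217, 219 and 215 CPM at 4.5 weeks (log2 fold change 2.43 ± 0.16 SE, adjusted p = 7.67e-08). C3 itself, the central component, had a log2 fold change of -0.07 ± 0.16 SE (adjusted p = 0.722). Cytokines and their receptors rose in 12 of 21 cases and fell in 1 (2 without cKO library 1 of 4 weeks). Tnfrsf1b, the second TNF receptor, rose from 11.2, 17.1 and 16.4 CPM at 4 weeks to 109, 106 and 107 CPM at 4.5 weeks (log2 fold change 2.85 ± 0.12 SE, adjusted p = 4.29e-09). Csf2ra, the GM-CSF receptor, rose from 17.8, 21.2 and 22.3 CPM at 4 weeks to 91.8, 96.8 and 92.4 CPM at 4.5 weeks (log2 fold change 2.19 ± 0.14 SE, adjusted p = 5.49e-08). The gene that fell was Il1b, interleukin 1 beta, from 5.82, 10.3 and 7.11 CPM at 4 weeks to 1.27, 1.64 and 1.46 CPM at 4.5 weeks (log2 fold change -2.41 ± 0.35 SE, adjusted p = 6.65e-05).

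Chemokines were divided. Of 18, 2 rose and 2 fell, against 27.1% and 28.6% of all genes, with a median log2 fold change of -0.46. Without cKO library 1 of 4 weeks 1 rose and 8 fell, with a median of -0.82, and without library 2 of 4 weeks 4 rose, with a median of -0.21. Ccl6 rose from 15.4, 22.6 and 25.2 CPM at 4 weeks to 78.4, 79.5 and 60.1 CPM at 4.5 weeks (log2 fold change 1.78 ± 0.18 SE, adjusted p = 2.61e-06), whereas the later controls were lower (-0.93 ± 0.23 SE, adjusted p = 0.0183). Ccl9 was at 10.1, 25.2 and 18.1 CPM at 4 weeks and 28.6, 28.6 and 25.1 CPM at 4.5 weeks (log2 fold change 0.62 ± 0.24 SE, adjusted p = 0.0394), and it was no longer called under 14 of the 27 alternative settings. Cx3cl1, the neuronal ligand of the microglial receptor Cx3cr1, fell from 193, 191 and 200.5 CPM at 4 weeks to 81.3, 89.8 and 91.8 CPM at 4.5 weeks (log2 fold change -1.15 ± 0.08 SE, adjusted p = 1.4e-07). The receptor, Cx3cr1, rose from 86.9, 131 and 124 CPM at 4 weeks to 456, 461 and 434 CPM at 4.5 weeks (log2 fold change 1.98 ± 0.13 SE, adjusted p = 6.06e-08). Of 13 class I antigen presentation genes 4 rose and 2 fell, and of 10 class II genes 4 rose and none fell. Over all genes 27.1% rose and 28.6% fell. The class I counts were 7 and 0 without cKO library 2 of 4 weeks. Class I genes that fell numbered 0 to 3 over single cKO libraries left out and 1 with the length trend removed. H2-D1, a class I heavy chain whose reads can be shared with related genes, rose from 166, 385 and 289 CPM at 4 weeks to 843, 759 and 742 CPM at 4.5 weeks (log2 fold change 1.48 ± 0.21 SE, adjusted p = 6.53e-05). Cd86, a costimulatory ligand, rose from 6.05, 12 and 11.1 CPM at 4 weeks to 36.7, 35.4 and 33.8 CPM at 4.5 weeks (log2 fold change 1.86 ± 0.21 SE, adjusted p = 7.24e-06).

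Interferon-induced genes were spread widely between libraries of the same group. Of 41 genes 10 fell and none rose, a share not above the 28.6% of all genes that fell, and the median log2 fold change was -0.71 (-1.07 without cKO library 1 of 4 weeks and -0.05 without library 2). The libraries of 4 weeks were far apart. Mean log2 CPM over the 41 genes was 2.87, 5.762 and 4.997 at 4 weeks and 4.62, 4.54 and 3.75 at 4.5 weeks, and the 6 controls lay between 1.56 and 2.19. The libraries of both times overlapped in this mean, and in no single gene of the list were the 3 libraries of one time all outside those of the other. Cmpk2, a mitochondrial nucleotide kinase, was at 33.7, 77.9 and 54.5 CPM at 4 weeks and 36.5, 32.2 and 27.7 CPM at 4.5 weeks (log2 fold change -0.79 ± 0.22 SE, adjusted p = 0.00854). Xaf1, which antagonises inhibitors of apoptosis, was at 7.28, 29.7 and 17.1 CPM at 4 weeks and 8.32, 10.6 and 5.72 CPM at 4.5 weeks (log2 fold change -1.14 ± 0.37 SE, adjusted p = 0.0203). In both genes cKO library 1 of 4 weeks was within the range of 4.5 weeks, and libraries 2 and 3 were above it. Without library 1 of 4 weeks 30 of the 41 genes fell, without library 2 only 1 did and 3 rose, without library 3 there were 3, and without any 1 library of 4.5 weeks there were 1 to 4. The count was 1 with limma-voom, 1 in a fit of the 6 cKO libraries alone and 5 with the length trend removed. The difference from the control time effect was called for 1 of the 41 genes.

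**Figure D5:**
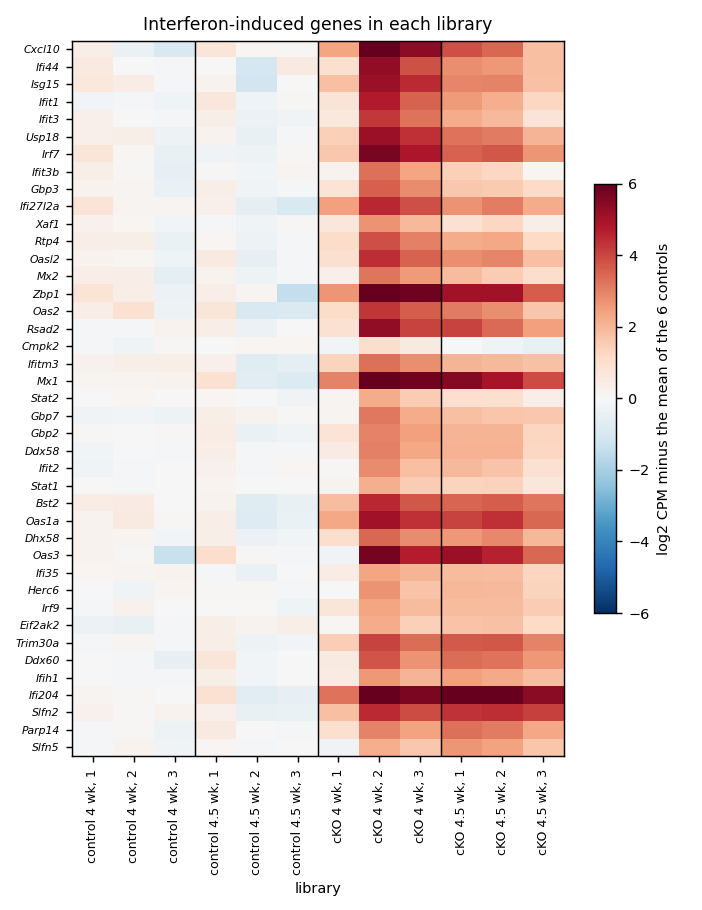
Rows are the 41 interferon-induced genes in order of their log2 fold change between the cKO groups, columns the 12 libraries, and colour the log2 CPM minus the mean of the 6 controls. The cKO library 1 of 4 weeks is pale across most rows, and libraries 2 and 3 of 4 weeks are the darkest. In the list mean the 3 libraries of 4.5 weeks lie between library 1 and libraries 2 and 3 of 4 weeks. Single libraries of 4.5 weeks fall below that library 1 in some rows, such as Cxcl10 and Xaf1. In the lowest rows, such as Ifi204 and Slfn5, the libraries of 4.5 weeks reach the level of libraries 2 and 3 of 4 weeks.

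The element bound by interferon-stimulated factors reads GAAA, any 2 bases and GAAA again. It was found on either strand in 16 of 30 list members with a RefSeq promoter (53.3%), among them 6 of 9 that fell, against 3.46% of 27025 genes. The 6 windows are shown because these genes carry the spread between the 4-week libraries, with each match in capitals, on the strand of the gene and in GRCm38.p6 coordinates. They lie at chr5:92349068-92349127 (minus, Cxcl10), chr4:156200850-156200909 (minus, Isg15), chr3:142559980-142560039 (plus, Gbp3), chr19:34640779-34640838 (plus, Ifit1), chr19:34583382-34583441 (plus, Ifit3) and chr19:34607778-34607837 (plus, Ifit3b).
Cxcl10: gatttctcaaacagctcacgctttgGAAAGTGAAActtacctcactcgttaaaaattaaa
Isg15: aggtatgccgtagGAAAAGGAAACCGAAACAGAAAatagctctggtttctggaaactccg
Gbp3: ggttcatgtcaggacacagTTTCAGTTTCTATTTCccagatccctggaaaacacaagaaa
Ifit1: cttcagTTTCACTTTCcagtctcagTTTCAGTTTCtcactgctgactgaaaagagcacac
Ifit3: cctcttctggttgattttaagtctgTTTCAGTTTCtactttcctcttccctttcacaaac
Ifit3b: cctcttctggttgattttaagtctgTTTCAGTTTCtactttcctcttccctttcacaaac
The windows of Ifit3 and Ifit3b are the same letters, and reads of these near copies may be divided between them. Cxcl10, a chemokine for T cells, was at 4.24, 69.5 and 33.9 CPM at 4 weeks and 11.9, 8.87 and 2.83 CPM at 4.5 weeks (log2 fold change -2.18 ± 0.72 SE, adjusted p = 0.0203). Isg15, a ubiquitin-like protein, was at 6.39, 66.5 and 39.9 CPM at 4 weeks and 13.7, 14.4 and 6.12 CPM at 4.5 weeks (log2 fold change -1.72 ± 0.60 SE, adjusted p = 0.0273). Ifit1, a sensor of foreign RNA, was at 8.83, 138 and 60.1 CPM at 4 weeks and 30.4, 23 and 12 CPM at 4.5 weeks (log2 fold change -1.67 ± 0.65 SE, adjusted p = 0.0438). In all 3 genes library 1 of 4 weeks was the lowest or among the lowest of the 6 knockouts, while libraries 2 and 3 were the highest.

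Targets of p53 came down from their level at 4 weeks. Of 29 genes 16 fell and 3 rose, with a median log2 fold change of -0.41 (-0.26 with the length trend removed). Phlda3, an inhibitor of Akt, fell from 304, 318 and 318 CPM at 4 weeks to 156, 151 and 148 CPM at 4.5 weeks (log2 fold change -1.05 ± 0.06 SE, adjusted p = 1.62e-08). Aen, a nuclease of apoptosis, fell from 87.8, 93 and 92.2 CPM at 4 weeks to 62.1, 54.3 and 55.8 CPM at 4.5 weeks (log2 fold change -0.67 ± 0.06 SE, adjusted p = 1.13e-06). Cdkn1a, the cell cycle inhibitor p21, fell from 792, 753 and 751 CPM at 4 weeks to 431, 449.9 and 446 CPM at 4.5 weeks (log2 fold change -0.79 ± 0.14 SE, adjusted p = 0.000414). At 4.5 weeks all 3 genes were still above every control, whose ranges were 76.5 to 94.6 CPM, 28.4 to 34.8 CPM and 25.4 to 53.1 CPM. The genes that rose were Apaf1, the scaffold of the apoptosome, from 22.8, 30.8 and 27.6 CPM at 4 weeks to 47.3, 45.6 and 42.7 CPM at 4.5 weeks (log2 fold change 0.74 ± 0.09 SE, adjusted p = 2.47e-05), Sesn1 (log2 fold change 0.63 ± 0.12 SE) and Plk3 (log2 fold change 0.37 ± 0.10 SE). Phlda3 and Cdkn1a were among 5 members also called between the controls, 4 of them in the same direction.

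The integrated stress response did not move as a unit. Of 28 genes 11 rose and 8 fell, against 27.1% and 28.6% of all genes. The median log2 fold change was 0.12 (0.08 without cKO library 1 of 4 weeks and 0.21 without library 2). Psat1, an enzyme of serine synthesis, rose from 135, 103 and 112 CPM at 4 weeks to 244, 248 and 241 CPM at 4.5 weeks (log2 fold change 1.07 ± 0.09 SE, adjusted p = 3.99e-07), which brought it into the range of the controls (218 to 262 CPM). Cebpg, a transcription factor that pairs with ATF4, rose from 50.3, 52.1 and 50.4 CPM at 4 weeks to 98.6, 86.2 and 88.7 CPM at 4.5 weeks (log2 fold change 0.84 ± 0.07 SE, adjusted p = 3.66e-07). Asns, asparagine synthetase, fell from 81.1, 78.4 and 83 CPM at 4 weeks to 34.7, 39.3 and 43.2 CPM at 4.5 weeks (log2 fold change -1.05 ± 0.07 SE, adjusted p = 1.23e-07), and Atf4, the central factor of the response, and Ddit3, the pro-apoptotic factor CHOP, fell by log2 fold changes of -0.33 ± 0.05 and -0.97 ± 0.12 SE (adjusted p = 0.000187 and 1.61e-05). Atf4 and Ddit3 were also lower in the later controls, by -0.31 and -0.51.

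Of 16 unfolded protein response genes 6 rose and 2 fell, against 27.1% and 28.6% of all genes. The count of fallen genes was 0 with the length trend removed and 1 without cKO library 2 of 4.5 weeks. Edem1, which sends misfolded glycoproteins to degradation, rose from 38.1, 50.8 and 49.8 CPM at 4 weeks to 168, 180.1 and 171 CPM at 4.5 weeks (log2 fold change 1.91 ± 0.10 SE, adjusted p = 1.91e-08). Pdia4, a disulfide isomerase of the endoplasmic reticulum, rose from 55.5, 61.1 and 51.9 CPM at 4 weeks to 84.7, 83.7 and 80.8 CPM at 4.5 weeks (log2 fold change 0.56 ± 0.10 SE, adjusted p = 0.000273). Cytosolic heat shock genes fell in 12 of 15 cases and rose in 1, with a median log2 fold change of -0.55. Hsp90aa1, an inducible HSP90, fell from 1263, 1215 and 1174 CPM at 4 weeks to 576, 582 and 631 CPM at 4.5 weeks (log2 fold change -1.03 ± 0.07 SE, adjusted p = 8.44e-08). Hsph1, a co-chaperone of HSP70, fell from 262, 221 and 215 CPM at 4 weeks to 123, 110.3 and 94.3 CPM at 4.5 weeks (log2 fold change -1.09 ± 0.11 SE, adjusted p = 2.81e-06). The exception was Hspb1, the small heat shock protein HSP27, which rose from 137, 182 and 142 CPM at 4 weeks to 265, 248 and 236 CPM at 4.5 weeks (log2 fold change 0.70 ± 0.16 SE, adjusted p = 0.00201). Antioxidant and glutathione genes fell in 11 of 19 cases and rose in 3, against 7 and 4 with the length trend removed. Srxn1, sulfiredoxin, fell from 199, 252 and 227 CPM at 4 weeks to 97.7, 106 and 102 CPM at 4.5 weeks (log2 fold change -1.15 ± 0.07 SE, adjusted p = 6.2e-08). Sod1, the cytosolic superoxide dismutase, fell from 189.8, 177 and 183 CPM at 4 weeks to 95, 104 and 109 CPM at 4.5 weeks (log2 fold change -0.83 ± 0.07 SE, adjusted p = 5.15e-07).

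Genes of extrinsic and inflammatory cell death rose in 14 of 24 cases and fell in 2, with a median log2 fold change of 0.56. The median was 0.31 without cKO library 1 of 4 weeks, the lowest of its group in the list mean, which was 2.65, 3.57 and 3.30 log2 CPM at 4 weeks and 3.89, 3.94 and 3.87 at 4.5 weeks. The list also holds Bcl2l11, which encodes Bim, a pro-apoptotic protein of the intrinsic and not the extrinsic pathway. Bcl2l11 rose from 7.2, 8.6 and 6.14 CPM at 4 weeks to 39.1, 31.6 and 35.4 CPM at 4.5 weeks (log2 fold change 2.27 ± 0.15 SE, adjusted p = 6.87e-08). Cflar, which restrains caspase 8, rose from 32.9, 39.7 and 31.6 CPM at 4 weeks to 88.5, 83.8 and 82.5 CPM at 4.5 weeks (log2 fold change 1.29 ± 0.09 SE, adjusted p = 1.4e-07). Fas, the death receptor, and Il1b were the members that fell. With the length trend removed the call of Fas was lost, and none of the called members of this list was called between the controls.

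Astrocyte genes moved in both directions. Of 22 genes 9 rose and 6 fell, against 27.1% and 28.6% of all genes. The median log2 fold change was 0.27 (0.46 without cKO library 1 of 4 weeks and 0.13 without library 2). Aldh1l1, a folate enzyme that marks astrocytes, rose from 87.3, 85 and 89.5 CPM at 4 weeks to 117, 113 and 123 CPM at 4.5 weeks (log2 fold change 0.43 ± 0.06 SE, adjusted p = 5.19e-05). Fgfr3, a growth factor receptor of astrocytes, rose from 124, 69.4 and 88.3 CPM at 4 weeks to 189, 185 and 188 CPM at 4.5 weeks (log2 fold change 0.99 ± 0.15 SE, adjusted p = 0.00011), below the controls at both times (204 to 256 CPM). Slc7a10, a serine transporter, fell from 41, 22 and 29.3 CPM at 4 weeks to 9.98, 14.1 and 11.9 CPM at 4.5 weeks (log2 fold change -1.36 ± 0.19 SE, adjusted p = 4.18e-05). Aqp4, the water channel of astrocyte end-feet, was at 454, 286 and 350.1 CPM at 4 weeks and 472, 442 and 440.2 CPM at 4.5 weeks and did not pass the test (log2 fold change 0.32 ± 0.13 SE, adjusted p = 0.0542). Slc1a2, the glutamate transporter GLT-1, rose from 961, 479.6 and 634 CPM at 4 weeks to 1186, 1083 and 1058 CPM at 4.5 weeks (log2 fold change 0.68 ± 0.18 SE, adjusted p = 0.00692), with a similar difference between the controls (0.61 ± 0.18 SE, adjusted p = 0.0401). In Fgfr3, Aqp4 and Slc1a2 library 1 of 4 weeks was the highest of its group, and without it 14 of the 22 genes rose. The list mean was 7.64, 6.81 and 7.10 log2 CPM at 4 weeks and 7.30 to 7.36 at 4.5 weeks.

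Reactive astrocyte genes rose in 13 of 27 cases and none fell, with a median log2 fold change of 0.45. Cd109, a surface protein that binds TGF-beta, rose from 29.2, 35.7 and 32.1 CPM at 4 weeks to 97.6, 85.5 and 96.8 CPM at 4.5 weeks (log2 fold change 1.53 ± 0.13 SE, adjusted p = 7.01e-07). Serpina3n, a secreted protease inhibitor, rose from 193, 463 and 365 CPM at 4 weeks to 1760, 1726 and 2096 CPM at 4.5 weeks (log2 fold change 2.45 ± 0.23 SE, adjusted p = 1.91e-06). Gfap, the astrocyte intermediate filament, rose by less (log2 fold change 0.39 ± 0.12 SE, adjusted p = 0.0162), from 2707, 1807 and 2372 CPM at 4 weeks to 3196, 2937 and 2878 CPM at 4.5 weeks. The count of risen genes was 7 without cKO library 1 of 4.5 weeks, and 5 genes fell without library 1 of 4 weeks.

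Neuronal genes fell across the list. Of 26 genes of neurons and synapses 22 fell and 1 rose, 12 of them at least 2-fold lower, with a median log2 fold change of -0.98 against 0.16 in the controls. Snap25, a SNARE protein of synaptic vesicle fusion, fell from 1850, 1777 and 1751 CPM at 4 weeks to 464, 600.2 and 651 CPM at 4.5 weeks (log2 fold change -1.65 ± 0.10 SE, adjusted p = 5.37e-08). Cplx1, complexin 1, which clamps that fusion, fell from 1204, 1227 and 1244 CPM at 4 weeks to 459.8, 499 and 490.0 CPM at 4.5 weeks (log2 fold change -1.34 ± 0.06 SE, adjusted p = 5.55e-09). Nefh, the heavy neurofilament of large axons, fell from 1422, 1319 and 1206 CPM at 4 weeks to 472, 428 and 346 CPM at 4.5 weeks (log2 fold change -1.66 ± 0.12 SE, adjusted p = 1.29e-07), while it was higher in the later controls (0.36 ± 0.11 SE, adjusted p = 0.0457). Gria2, a subunit of AMPA receptors, rose from 138, 117 and 124 CPM at 4 weeks to 160.2, 158 and 160.5 CPM at 4.5 weeks (log2 fold change 0.34 ± 0.08 SE, adjusted p = 0.0033), and this call was lost when the length trend was removed, with a log2 fold change of 0.03. Gad2, Map2 and Camk2a did not pass the test, with log2 fold changes of -0.38, -0.12 and -0.00. The difference from the control time effect was called for 24 of the 26 genes.

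Motor neuron genes fell in 13 of 15 cases and none rose, with a median log2 fold change of -1.11. Chodl, a marker of fast motor neurons, fell from 33.6, 24.9 and 24.8 CPM at 4 weeks to 7.58, 8.02 and 5.25 CPM at 4.5 weeks (log2 fold change -1.99 ± 0.16 SE, adjusted p = 3.74e-07). Ache, acetylcholinesterase, fell from 191, 198 and 210.5 CPM at 4 weeks to 69.3, 78.7 and 71.3 CPM at 4.5 weeks (log2 fold change -1.45 ± 0.07 SE, adjusted p = 1.16e-08). Chat, which makes acetylcholine, fell from 30.4, 23.6 and 21.4 CPM at 4 weeks to 13.4, 11.2 and 8.53 CPM at 4.5 weeks (log2 fold change -1.18 ± 0.17 SE, adjusted p = 5.39e-05). Slc18a3, the vesicular acetylcholine transporter, fell from 82.2, 87.1 and 76.3 CPM at 4 weeks to 40.7, 34.1 and 22.3 CPM at 4.5 weeks (log2 fold change -1.34 ± 0.16 SE, adjusted p = 1.76e-05). In each of these 4 genes the highest library of 4.5 weeks lay below the lowest of 4 weeks. Isl1, a transcription factor of motor and sensory neurons, did not pass the test (log2 fold change -0.75 ± 0.41 SE, adjusted p = 0.135).

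Regional and neighbouring tissue markers moved beside these neuronal lists. Of 10 anterior Hox genes 7 fell, 5 of them also lower in the later controls, and of 7 tested posterior Hox genes 5 fell. Hoxb5 fell from 44.5, 45.2 and 45.6 CPM at 4 weeks to 19.1, 22.4 and 23.4 CPM at 4.5 weeks (log2 fold change -1.06 ± 0.09 SE, adjusted p = 5.58e-07). Hoxb9 fell from 67.2, 62.2 and 72.9 CPM at 4 weeks to 39.1, 36.9 and 53.7 CPM at 4.5 weeks (log2 fold change -0.64 ± 0.13 SE, adjusted p = 0.000857). Globin transcripts were lower in all 3 libraries of 4.5 weeks, with all 5 tested erythrocyte genes called and a list median of -4.87 against -1.96 in the controls. Hba-a2, an alpha globin that shares reads with Hba-a1, fell from 78.3, 24.2 and 16.4 CPM at 4 weeks to 1.17, 2.16 and 0.73 CPM at 4.5 weeks (log2 fold change -4.87 ± 0.62 SE, adjusted p = 2.34e-05). Genes of sensory ganglia and Schwann cells were called upward in 2 (1 without cKO library 1 or 3 of 4 weeks) and downward in 2 of 14 cases. Over all genes 27.1% rose and 28.6% fell. Of 14 skeletal muscle genes 1, Pvalb, a calcium-binding protein that interneurons also express, fell. The mean of the muscle list was -0.60, -0.37 and 2.38 log2 CPM at 4 weeks, high in library 3, and 0.08, -1.07 and -0.55 at 4.5 weeks. The part of these markers in the neuronal result was not tested.

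Of 20 axon injury genes 7 rose and 6 fell, against 27.1% and 28.6% of all genes. The median log2 fold change was -0.05, which was -0.14 without cKO library 1 of 4 weeks and 0.05 with the length trend removed. Klf6, a transcription factor of axon regrowth, rose from 33.3, 41.4 and 37.6 CPM at 4 weeks to 95, 90 and 82.7 CPM at 4.5 weeks (log2 fold change 1.25 ± 0.09 SE, adjusted p = 1e-07). Atf3, the injury-induced factor of neurons that is also an integrated stress gene, rose from 9.72, 34.7 and 23.1 CPM at 4 weeks to 67.8, 66.4 and 44 CPM at 4.5 weeks (log2 fold change 1.40 ± 0.40 SE, adjusted p = 0.00906). Sprr1a, a protein of regenerating axons, rose from 0.975, 4.74 and 4.74 CPM at 4 weeks to 61.5, 49.1 and 38.6 CPM at 4.5 weeks (log2 fold change 3.83 ± 0.92 SE, adjusted p = 0.00332). Stmn4, a regulator of microtubules, fell from 180.4, 146 and 153 CPM at 4 weeks to 79.4, 74.7 and 69.3 CPM at 4.5 weeks (log2 fold change -1.10 ± 0.09 SE, adjusted p = 5.04e-07). Of 14 immediate early genes 4 rose and 5 fell, against the same shares of all genes. There were 2 that rose without cKO library 1 or 3 of 4 weeks. There were 3 that fell without library 2 of 4 weeks or library 1 or 2 of 4.5 weeks. Arc, a synaptic activity gene, fell from 125, 101 and 108 CPM at 4 weeks to 40.7, 38.6 and 32.9 CPM at 4.5 weeks (log2 fold change -1.57 ± 0.11 SE, adjusted p = 1.01e-07). Nr4a1, a nuclear receptor induced by many stimuli, rose from 12, 10.7 and 14.3 CPM at 4 weeks to 26.4, 22.2 and 26.5 CPM at 4.5 weeks (log2 fold change 1.02 ± 0.13 SE, adjusted p = 2.43e-05).

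The machinery to which Ddx20 belongs moved downward in part. Of 27 genes of the SMN complex and the spliceosomal proteins it handles 14 fell and 2 rose, with a median log2 fold change of -0.31 against -0.11 in the controls. Snrpa1, a U2 protein, fell from 38.2, 44.3 and 39.7 CPM at 4 weeks to 21.6, 22.1 and 21.6 CPM at 4.5 weeks (log2 fold change -0.90 ± 0.07 SE, adjusted p = 5.34e-07). Snrpd2, a core Sm protein, fell from 63.1, 63.1 and 66.2 CPM at 4 weeks to 37.4, 37.6 and 36.3 CPM at 4.5 weeks (log2 fold change -0.79 ± 0.07 SE, adjusted p = 8.39e-07). Both were also lower in the later controls, by -0.27 and -0.39, as were 7 of the 16 called members in the direction of the knockouts. Smn1, the protein that names the complex, was at 11.8, 15.1 and 15.6 CPM at 4 weeks and 13.5, 12.2 and 13.5 CPM at 4.5 weeks (log2 fold change -0.11 ± 0.12 SE, adjusted p = 0.431). Snrnp70, the U1 70K protein, rose from 117, 143 and 132 CPM at 4 weeks to 166, 157 and 153 CPM at 4.5 weeks (log2 fold change 0.28 ± 0.08 SE, adjusted p = 0.00725), and so did Gemin5, which recognises small nuclear RNAs (log2 fold change 0.24 ± 0.08 SE). With the length trend removed 12 genes fell and 4 rose, and the list's median was -0.16. The count of risen genes was 1 without cKO library 2 of 4 weeks or library 1 of 4.5 weeks.

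Ribosomal protein genes had medians slightly above 0 in the knockouts and below 0 in the controls. Of 46 large subunit genes 18 rose and 4 fell, with a median log2 fold change of 0.11 against -0.38 in the controls, and of 32 small subunit genes 21 rose and 2 fell, with a median of 0.19 against -0.39. None changed 2-fold. Rpl7a rose from 269.8, 310.4 and 305 CPM at 4 weeks to 439.5, 418 and 432 CPM at 4.5 weeks (log2 fold change 0.54 ± 0.06 SE, adjusted p = 9.96e-06). Rpl5, which with its partner binds MDM2, rose from 304, 318 and 321 CPM at 4 weeks to 457, 434 and 450.3 CPM at 4.5 weeks (log2 fold change 0.51 ± 0.05 SE, adjusted p = 3.83e-06). Rps9 rose from 307, 321 and 336 CPM at 4 weeks to 456, 413 and 439 CPM at 4.5 weeks (log2 fold change 0.44 ± 0.06 SE, adjusted p = 5.39e-05). Rps27l, a p53-induced ribosomal gene, fell from 49.3, 62.7 and 64 CPM at 4 weeks to 43.5, 44.8 and 47.1 CPM at 4.5 weeks (log2 fold change -0.38 ± 0.10 SE, adjusted p = 0.0047). Processed pseudogenes of these genes are many, so how reads were divided is uncertain. The counts moved with the processing. With the length trend removed 40 large subunit genes rose and 1 fell, with a median of 0.34, and 29 small subunit genes rose and none fell, with a median of 0.45. The large subunit median was 0.07 without cKO library 1 of 4 weeks and 0.04 with upper quartile scaling. The count of small subunit genes that rose was 10 with that scaling, 10 or 13 without cKO library 1 or 2 of 4 weeks, and 12 without library 1 of 4.5 weeks. The difference between the time effects was called for 41 large and 30 small subunit genes.

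Genes of oxidative phosphorylation fell. Of 26 nuclear genes of oxidative phosphorylation 25 fell, with a median log2 fold change of -0.78 against -0.20 in the controls, and 14 of them were also lower in the later controls. Cox5a, a subunit of cytochrome oxidase, fell from 169, 169 and 165 CPM at 4 weeks to 71.1, 79.1 and 83.3 CPM at 4.5 weeks (log2 fold change -1.11 ± 0.06 SE, adjusted p = 1.94e-08). Cyc1, cytochrome c1, fell from 175, 167 and 170.1 CPM at 4 weeks to 84.5, 88.1 and 91.1 CPM at 4.5 weeks (log2 fold change -0.96 ± 0.05 SE, adjusted p = 2.69e-08). Sdhc, a membrane anchor of succinate dehydrogenase, did not pass the test (log2 fold change -0.11 ± 0.05 SE, adjusted p = 0.0839). Of 20 genes of glycolysis and lactate transport 13 fell and 5 rose. Eno2, the neuronal enolase, fell from 839, 874 and 901 CPM at 4 weeks to 325, 377 and 373 CPM at 4.5 weeks (log2 fold change -1.28 ± 0.07 SE, adjusted p = 2.98e-08). Pfkp, a phosphofructokinase, fell from 203, 189.8 and 191 CPM at 4 weeks to 97.7, 101 and 107 CPM at 4.5 weeks (log2 fold change -0.93 ± 0.06 SE, adjusted p = 5.28e-08). Hk2, an inducible hexokinase, rose from 11.3, 16.1 and 15.8 CPM at 4 weeks to 58.4, 57.8 and 53.9 CPM at 4.5 weeks (log2 fold change 1.97 ± 0.15 SE, adjusted p = 2.97e-07). The lactate exporter Slc16a3 rose as well (log2 fold change 1.18 ± 0.23 SE, adjusted p = 0.00064).

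Iron handling genes rose in 10 of 16 cases and fell in 1, Bmp6, a growth factor that controls hepcidin (log2 fold change -1.59 ± 0.34 SE, adjusted p = 0.00151). Ftl1, ferritin light chain, rose from 726, 834 and 872 CPM at 4 weeks to 2574, 2724 and 2577 CPM at 4.5 weeks (log2 fold change 1.70 ± 0.08 SE, adjusted p = 8.82e-09), whereas it was lower in the later controls (-0.42 ± 0.08 SE, adjusted p = 0.00511). Slc11a1, the iron and manganese transporter of phagosomes, rose from 13.8, 20.6 and 19.8 CPM at 4 weeks to 100.4, 91 and 80.8 CPM at 4.5 weeks (log2 fold change 2.32 ± 0.16 SE, adjusted p = 9.04e-08). Matrix genes rose in 11 of 26 cases and fell in 1 (2 without cKO library 1 of 4 weeks), against 27.1% and 28.6% of all genes. Timp2, an inhibitor of metalloproteases, rose from 375, 364 and 390.4 CPM at 4 weeks to 641, 614 and 730.3 CPM at 4.5 weeks (log2 fold change 0.81 ± 0.07 SE, adjusted p = 7.4e-07). Mmp9, a metalloprotease that motor neurons also express, fell from 11.8, 11.7 and 8.59 CPM at 4 weeks to 3.4, 2.68 and 3.14 CPM at 4.5 weeks (log2 fold change -1.79 ± 0.15 SE, adjusted p = 7.28e-07). Endothelial genes rose in 11 of 18 cases and fell in 2, Plvap and Esm1, with log2 fold changes of -0.82 ± 0.14 and -2.13 ± 0.50 SE (adjusted p = 0.000342 and 0.00294). Abcb1a, the efflux pump of the blood-brain barrier, rose from 29.3, 29.6 and 24.9 CPM at 4 weeks to 65.9, 52.2 and 59.8 CPM at 4.5 weeks (log2 fold change 1.08 ± 0.12 SE, adjusted p = 5.14e-06). Slco1a4, an organic anion carrier of the same vessels, rose from 40.4, 37.7 and 37.5 CPM at 4 weeks to 84.2, 73.5 and 93.3 CPM at 4.5 weeks (log2 fold change 1.12 ± 0.14 SE, adjusted p = 1.71e-05). Of 12 ependymal genes 2 rose and 2 fell, against 27.1% and 28.6% of all genes. There was 1 that fell when the length trend was removed. Over single cKO libraries left out, 1 to 2 rose and 1 to 3 fell. Foxj1, the master factor of motile cilia, fell from 92.1, 79.4 and 77.4 CPM at 4 weeks to 45.7, 44.8 and 43.9 CPM at 4.5 weeks (log2 fold change -0.89 ± 0.07 SE, adjusted p = 4.5e-07).

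Markers of macrophages from outside the parenchyma rose beside the microglial lists, in 10 of 17 cases, with a median log2 fold change of 1.49. One of the 10 was Vcan, counted above among the progenitor genes as well. The gene that fell, Plac8, was at 0.373, 3.88 and 1.05 CPM at 4 weeks and 0.298, 0.602 and 0.421 CPM at 4.5 weeks (log2 fold change -2.01 ± 0.66 SE, adjusted p = 0.0203), and its call was lost without cKO library 2 of 4 weeks and without library 1 or 3 of 4.5 weeks. Stab1, a scavenger receptor, rose from 16.8, 17.5 and 14.1 CPM at 4 weeks to 403, 369.9 and 311 CPM at 4.5 weeks (log2 fold change 4.48 ± 0.18 SE, adjusted p = 2.87e-09). Ms4a7, a gene of border and infiltrating macrophages, rose from 0.401, 1.11 and 0.188 CPM at 4 weeks to 22.1, 17.9 and 18.2 CPM at 4.5 weeks (log2 fold change 5.07 ± 0.52 SE, adjusted p = 3.35e-06). The defining border genes Mrc1 and Lyve1 did not pass the test, at log2 fold changes of 0.56 ± 0.55 and -0.64 ± 0.80 SE, and the monocyte gene Ly6c2 was at 0.143, 1.21 and 0.242 CPM at 4 weeks and 0.472, 0.602 and 0.561 CPM at 4.5 weeks (log2 fold change 0.01 ± 0.69 SE). Ccr2, the receptor of recruited monocytes, rose from 0.631, 1.29 and 0.484 CPM at 4 weeks to 1.91, 2.63 and 3.28 CPM at 4.5 weeks (log2 fold change 1.69 ± 0.51 SE, adjusted p = 0.0128). Neutrophil genes rose in 4 of 8 tested cases, out of 10 listed, against 27.1% of all genes. The other 4 tested neutrophil genes were not called. Csf3r, the G-CSF receptor, rose from 18.3, 21 and 22.8 CPM at 4 weeks to 111, 94.4 and 79.9 CPM at 4.5 weeks (log2 fold change 2.20 ± 0.12 SE, adjusted p = 2.28e-08). Mmp8, neutrophil collagenase, rose from 0.0573, 0.177 and 0.0538 CPM at 4 weeks to 2.31, 4.22 and 2.64 CPM at 4.5 weeks (log2 fold change 4.92 ± 0.56 SE, adjusted p = 8.7e-06). Of 17 lymphocyte genes only 7 passed the filter on low counts, so those that passed are not a sample of the list. Cd79b and Cd4 were higher and the T cell receptor genes Trac and Trbc2 were lower, each of them below 4 CPM in every library of the knockouts. Both T cell receptor calls were lost without cKO library 2 of 4 weeks or library 1 or 3 of 4.5 weeks, and that of Trbc2 with the length trend removed. The part of such cells in the microglial result was not tested.

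The genes chosen for the size of their rise, among genes not called between the controls, were Gpnmb, Stab1, Apoc1 and 5 more. Col20a1, a collagen-like gene, rose from 4.36, 6.91 and 7.05 CPM at 4 weeks to 167, 129 and 123 CPM at 4.5 weeks (log2 fold change 4.51 ± 0.18 SE, adjusted p = 2.52e-09). Cd300a, an inhibitory receptor of myeloid cells that binds lipids, rose from 1.83, 3.53 and 2.37 CPM at 4 weeks to 55.5, 55.5 and 47.4 CPM at 4.5 weeks (log2 fold change 4.35 ± 0.21 SE, adjusted p = 8.66e-09). Abcc3, an organic anion exporter, rose from 4.04, 4.67 and 5.84 CPM at 4 weeks to 71.2, 70.1 and 75.9 CPM at 4.5 weeks (log2 fold change 3.90 ± 0.15 SE, adjusted p = 1.98e-09). Lyz2, the lysozyme of macrophages, rose from 95.2, 115 and 93.4 CPM at 4 weeks to 1678, 1399 and 1489 CPM at 4.5 weeks (log2 fold change 3.91 ± 0.37 SE, adjusted p = 1.92e-06). Ugt1a7c, a glucuronosyltransferase, rose from 1.52, 2.19 and 3.39 CPM at 4 weeks to 35.1, 40.4 and 37.2 CPM at 4.5 weeks (log2 fold change 3.98 ± 0.28 SE, adjusted p = 1.18e-07). Reads of Lyz2 can be shared with its near copy, and those of Ugt1a7c with genes that use the same 3′ exons. In all 8 genes the difference from the control time effect was called. They were chosen for a large change in the knockouts without a call between the controls, so this is not an independent check.

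Genes chosen for the size of their fall included neuronal and vascular genes. Chrna2, a nicotinic receptor subunit, fell from 4.33, 3.88 and 2.91 CPM at 4 weeks to 0.323, 0.575 and 0.0281 CPM at 4.5 weeks (log2 fold change -3.56 ± 0.46 SE, adjusted p = 2.7e-05). Grin3b, an NMDA receptor subunit enriched in motor neurons, fell from 11.8, 8.48 and 8.29 CPM at 4 weeks to 1.49, 1.94 and 1.46 CPM at 4.5 weeks (log2 fold change -2.54 ± 0.16 SE, adjusted p = 5.88e-08). Kcnj14, a potassium channel of motor neurons, fell from 40.5, 40.5 and 32.6 CPM at 4 weeks to 10.6, 5.91 and 3.4 CPM at 4.5 weeks (log2 fold change -2.50 ± 0.27 SE, adjusted p = 5.7e-06). Aplnr, the apelin receptor, fell from 17.3, 11.7 and 10.2 CPM at 4 weeks to 1.74, 2.44 and 0.814 CPM at 4.5 weeks (log2 fold change -2.96 ± 0.35 SE, adjusted p = 1.32e-05). Car3, a carbonic anhydrase, fell from 6.54, 12.8 and 5.62 CPM at 4 weeks to 1.02, 0.821 and 0.814 CPM at 4.5 weeks (log2 fold change -3.23 ± 0.36 SE, adjusted p = 8e-06). Rbp4, which carries retinol, Clec3b, tetranectin, and Pi16, a marker of fibroblasts, were already low in library 3 of 4 weeks. Rbp4 fell from 23.2, 20.8 and 3.39 CPM at 4 weeks to 1.17, 1.07 and 1.12 CPM at 4.5 weeks. Clec3b fell from 17.7, 18.3 and 2.48 CPM at 4 weeks to 1.39, 1.23 and 1.12 CPM at 4.5 weeks. Pi16 fell from 9.17, 10.7 and 3.12 CPM at 4 weeks to 1.14, 1.89 and 0.87 CPM at 4.5 weeks. Their log2 fold changes were -3.81 ± 0.85, -3.35 ± 0.85 and -2.56 ± 0.56 SE (adjusted p = 0.00202, 0.00477 and 0.00172). The 6 controls ranged over 2.13 to 22.6 CPM, 2.55 to 27.3 CPM and 1.77 to 10.4 CPM, and the difference from the control time effect did not pass the test for any of them.

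Among genes called in both comparisons, those named by rule changed further in the knockouts. Paox, a polyamine oxidase, rose from 10.4, 10.9 and 11.2 CPM at 4 weeks to 53.1, 50.3 and 56.5 CPM at 4.5 weeks (log2 fold change 2.29 ± 0.07 SE, adjusted p = 8.23e-10), against 0.23 in the controls. Slc6a6, the taurine transporter, rose from 67.2, 73.9 and 69 CPM at 4 weeks to 256, 264 and 264 CPM at 4.5 weeks (log2 fold change 1.90 ± 0.06 SE, adjusted p = 1e-09), against 0.28. Fbxo2, a ubiquitin ligase subunit for glycoproteins, fell from 202, 181 and 181 CPM at 4 weeks to 72.6, 73.4 and 71.7 CPM at 4.5 weeks (log2 fold change -1.37 ± 0.06 SE, adjusted p = 6.33e-09), against -0.24. Dexi, a gene with no settled function, fell from 62.9, 67.2 and 65.3 CPM at 4 weeks to 24.3, 25.7 and 24.2 CPM at 4.5 weeks (log2 fold change -1.40 ± 0.06 SE, adjusted p = 6.81e-09), against -0.25. For all 4 the difference between the time effects was called. They were chosen for a small p in the knockouts. Neither the larger change there nor this call is therefore an independent check.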

How the data were processed

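RNA of 12 spinal cords was sequenced as mRNA libraries made with a kit that does not mark strand. The authors deposited 1 table of estimated counts per time, and the submitters' processing notes name STAR, RSEM and the mm39 build without versions. Columns were matched to samples by the time of the table and the column name, 27 symbols that had been turned into dates were restored, and the 6753 genes with a blank symbol were kept by identifier. Estimated counts were rounded to whole numbers.

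All 4 groups were fitted in 1 model with edgeR 4.0.16 in R 4.3.3 (TMM scaling, filterByExpr, quasi-likelihood F test), so that they shared 1 estimate of spread. Adjusted p values are Benjamini-Hochberg values over the 19278 tested genes, with 0.05 as the threshold for a call. Counts are over the 18657 of them not on X or Y. SE is the log2 fold change divided by the square root of F. The control contrast and the difference between the contrasts came from the same fit. Chromosomes and transcript lengths were taken from GENCODE M21, and promoters from RefSeq (GRCm38.p6), by symbol or identifier, so no coordinate is in the build of the counts. In simulated data of 19278 genes, 100 were changed 1.5-fold and 100 were changed 2-fold. Of these 54% and 74% were recovered in the knockout contrast, with 7 false calls. Far fewer genes changed there than the 55.8% called between the knockouts, so these shares do not carry over to the real contrast.

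Named genes were the 8 largest rises and falls among called genes averaging a log2 CPM of 1 or more, with no overlap of the groups and no call in the controls. To these were added, in each list, the called members with the smallest p, 3 genes per direction among those called in both comparisons, and Ddx20. A few of the genes this rule names are not reported here. Other genes named in the text are defining markers, list exceptions or genes chosen after their values were seen. The members and the lists were chosen with earlier results of these data known. Deviations of same-numbered knockouts correlated at -0.007, 0.037 and 0.012, so the numbers did not pair the animals. Alternatives were other scalings and filters, DESeq2 1.42.0, limma-voom (limma 3.58.1), a sex term, blocking on replicate number, testing against 1.5-fold, removal of the length trend, of X and Y genes or of mitochondrial and globin genes, the 6 knockouts alone, and each library left out. P values set a group difference against a spread between animals that was estimated from all 12 libraries, controls included.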

Additional observations from a re-analysis of the deposited data

Results flagged for a closer look

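The time difference itself differed between knockouts and controls, by the test of that difference in the joint model, for 7533 genes, among them 108 of the named genes. Named genes other than Ddx20 were chosen for their p or change in the knockouts, so the 108 is not an independent check. Some named genes were called in both comparisons and moved in opposite directions. Among them, the knockout minus control difference in log2 fold change was negative for Nefh (-2.02) and Elovl6 (-0.80). It was positive for Rpl5 (0.74), Gltp (0.78), Rpl7a (0.80), Pdia4 (0.91), Rps9 (0.91), Ftl1 (2.11), Ccl6 (2.71) and Trem2 (3.08). The controls of both times differed in sex, so sex and time cannot be told apart in the control side of these differences.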

How the results depend on the processing

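Across 27 alternatives none of the 121 named genes changed direction, and 93 kept their side of the threshold in every one. Apart from Ddx20 they were chosen from these same libraries for a small p or a large change. The kept direction is therefore not an independent check. Leaving out each library in turn gave 4492 to 5121 genes higher and 4745 to 5408 lower between the knockouts. With the replicate block, 4938 genes were higher and 5189 lower, and 4 interferon-induced genes were lower. The numbers did not pair the animals.

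The interferon-induced count of 10 lower was 5 with the DESeq2 Wald test, 1 with limma-voom, 3 with a sex term, 0 against a 1.5-fold change, 5 with the length trend removed, 1 with the 6 knockouts alone, 6 without control libraries 1 and 2 of 4.5 weeks (chosen after seeing the data), and 1 to 30 over single libraries left out. Proliferation genes higher numbered 4 with DESeq2 size factors, without a filter, at 1 CPM or with limma-voom, 0 against 1.5-fold or with the knockouts alone, and 0 to 7 over libraries. Chemokines higher numbered 1 with upper quartile scaling, the sex term or 1.5-fold, 5 with limma-voom, and 1 to 4 over libraries. Over libraries, astrocyte genes higher numbered 6 to 14, reactive astrocyte genes higher 7 to 14 and small ribosomal genes higher 10 to 21. Small ribosomal genes higher also numbered 10 with upper quartile scaling, which moved the median of all genes from -0.02 to -0.08. Large ribosomal genes higher numbered 40 with the length trend removed.

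Against a 1.5-fold change 1824 genes were higher and 1546 lower, with 2203 for the difference between contrasts, and the lists gave 10 myelin genes lower, 0 myelin lipid, 12 progenitor, 3 integrated stress, 2 astrocyte, 6 reactive astrocyte, 2 axon injury, 0 large and 0 small ribosomal genes higher, and 4 p53 and 2 SMN and spliceosomal genes lower. This test asks for a larger change by construction.

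Control calls (3091), with 1583 in the same and 677 in the opposite direction, fell to 0, 0 and 0 with a sex term, 1, 1 and 0 against 1.5-fold, 1006, 437 and 312 with the length trend removed, and 376, 132 and 121 without control libraries 1 and 2 of 4.5 weeks. Over single libraries left out they numbered 1257 to 3615, 668 to 1869 and 249 to 841. Sex and time coincide in the controls, so the counts with a sex term cannot tell them apart. For the other changes the cause was not tested.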

Other observations

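Genes on the X chromosome were kept out of the counts, and those given here were chosen after their values were seen. Gjb1, the connexin 32 of oligodendrocytes, fell from 62.0, 54.3 and 56.0 CPM to 21.01, 21.2 and 16.6 CPM (log2 fold change -1.55). Gpr34, a lysophosphatidylserine receptor of microglia, rose from 17.2, 16.7 and 15.6 CPM to 114.5, 111.5 and 103.4 CPM (log2 fold change 2.73). Timp1, an inhibitor of metalloproteases induced in reactive glia, rose from 7.597, 29.1 and 25.8 CPM to 57.4, 64.8 and 74.8 CPM (log2 fold change 1.66). The lysosomal genes Lamp2 and Gla rose as well, with log2 fold changes of 1.25 and 1.62.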
